A study of Mus musculus with 10 samples.

Results

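The effect of removing MHC class II from lymphatic vessels was examined in regulatory T cells (Tregs) of the tumor, by comparing the 2 tumor libraries of MHCIIdeltaProx-1 mice with the 3 tumor libraries of MHCIIfl/fl mice over all genes. These 5 libraries are chosen by tissue and genotype alone, out of 10 in the series. The other 5, from lymph node (LN) with the same split of 3 and 2, serve as background. All mice were 10 weeks old and had received a lymphangiogenic mouse melanoma cell line, and the cells were sorted from the digested tissue by red fluorescence (RFP). Control mice (MHCIIfl/fl) carry the floxed MHC class II allele. In MHCII-deleted mice (MHCIIdeltaProx-1) the allele is deleted under Prox1, the transcription factor that sets lymphatic endothelial identity and that is also active in some cells outside the lymphatics. The deletion takes place in cells that are not the sorted ones, so its extent cannot be read from these libraries. The labels do not say whether libraries come from separate mice or from pools, so p-values measure the spread between these libraries, which may be technical.

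Tregs are CD4 T cells that hold back other immune cells and depend on the transcription factor Foxp3. They are kept and shaped by T cell receptor contact with peptides on MHC class II, by co-stimulation and by interleukin 2. Inside tumors they commonly carry high levels of activation receptors such as Ctla4, Icos and Ccr8, while naive and recirculating Tregs carry Ccr7, Lef1 and Tcf7. Lymphatic endothelial cells can display MHC class II and meet T cells that leave the tissue through the vessels.

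The 5 tumor libraries held 28945497 to 35088022 counts and 13680 to 14703 detected genes. A gene without a count in a library could have been present at up to 0.0855 to 0.104 CPM (3 counts), a limit that covers counting error only. Cd3e and Cd3g, subunits of the T cell receptor complex, and Lck, the kinase that starts its signal, were lower in both MHCII-deleted libraries. Cd3e stood at 1513, 1666 and 1742 CPM (counts per library after TMM scaling to a shared total) in control libraries and 643 and 718 in MHCII-deleted ones. Cd3g stood at 1539.5, 1309 and 1419 CPM against 487 and 608, and Lck at 1822, 1737 and 1655 CPM against 733 and 859. The groups did not overlap for any of the 3 genes. Their log2 fold changes relative to total counts were -1.27 ± 0.09 (SE), -1.38 ± 0.11 and -1.13 ± 0.09 (edgeR quasi-likelihood test, adjusted p = 0.000144, 0.000144 and 0.000144). In LN the same genes did not pass on that scale (-0.036 ± 0.087, -0.13 ± 0.11 and -0.029 ± 0.086, edgeR, adjusted p = 1.0, 0.958 and 1.0).

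Melanoma transcripts moved the other way. Tyrp1, a melanosomal enzyme, stood at 661, 855 and 1019 CPM in control and 2912 and 3288 in MHCII-deleted libraries (log2 fold change 1.87 ± 0.28 relative to total counts, edgeR, adjusted p = 0.00155). Vegfc, the main growth factor of lymphatic vessels, stood at 246, 235 and 495 CPM against 1121 and 1358 (1.93 ± 0.35, edgeR, adjusted p = 0.004). The 15 melanoma markers listed for this comparison were all detected in both groups. They summed to between 4948 and 9625 CPM in control and between 19671.5 and 23903 CPM in MHCII-deleted libraries, against 16.4 to 34.9 CPM in LN. A count of melanoma transcripts per T cell transcript therefore differed more than either quantity alone: per 1000 T cell gene counts (the geometric mean of Cd3e, Cd3g and Lck in the same library) the sum was 4279 ± 1547 (SD, n = 3) in control and 32636 ± 724 (SD, n = 2) in MHCII-deleted libraries, a ratio of 7.63. The exact permutation p for that difference was 0.2, two-sided, which is the smallest that 2 against 3 libraries can give. In bulk libraries of this kind, fewer cells of a type and less RNA per cell cannot be told apart.

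**Figure D1:**
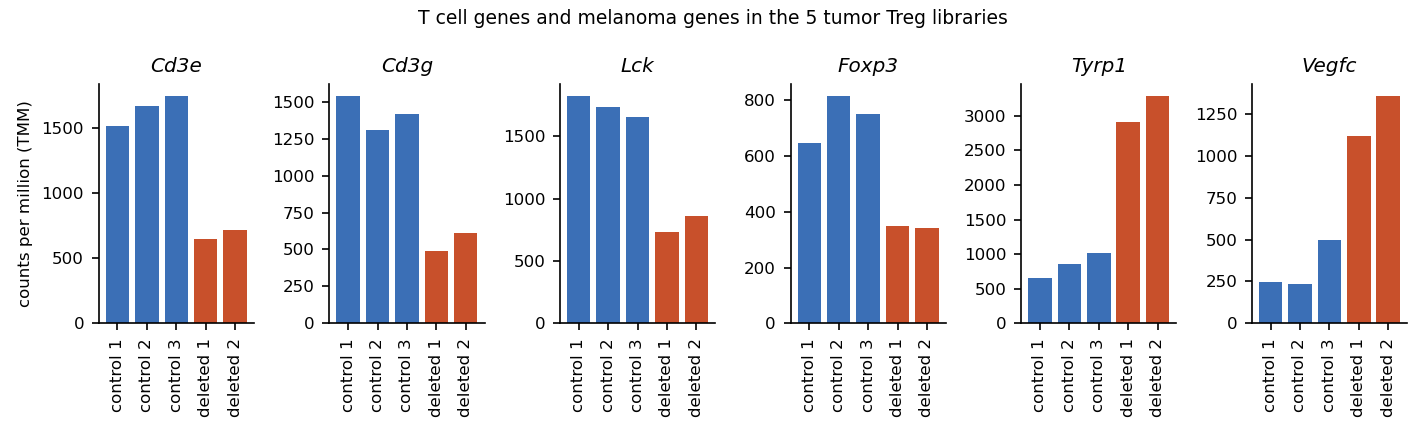
Bars give CPM after TMM scaling (vertical axes, each from 0) for 3 T cell genes, Foxp3, Tyrp1 and Vegfc in each of the 5 tumor libraries, control in blue and MHCII-deleted in orange. Cd3e, Cd3g, Lck and Foxp3 are lower in both MHCII-deleted libraries, and Tyrp1 and Vegfc are higher in both.

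Because of this shift the comparison was made on 2 scales. Relative to total counts, 2092 of 13920 tested genes were higher in tumor Tregs of MHCII-deleted mice (15%) and 1907 were lower (13.7%), with a median log2 fold change over all tested genes of 0.10. Relative to the 3 T cell genes, 9964 were higher (71.6%) and 22 were lower (0.158%), and the median of all genes moved to 1.37. On the second scale a value near 0 means that a transcript kept its proportion to Cd3e, Cd3g and Lck, and a value near 1.37 means that it kept its proportion to the typical transcript of the library. At an unadjusted p under 0.05, 41 genes were lower on that scale. Depth on this scale was uneven, since the T cell genes had a geometric mean of 45038 to 53019 counts in control and of 18217 and 25211 in MHCII-deleted libraries, and 3 counts equal 0.0566 to 0.0666 per 1000 T cell gene counts in the former and 0.165 and 0.119 in the latter. The standard errors of the second scale do not contain the error of the 3 scaling genes themselves, so calls close to the threshold depend on the choice of T cell genes. Every count of list members that were higher on this scale is to be read against the 71.6% of all genes.

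The lineage factors of Tregs were lower relative to total counts and did not pass the test relative to the T cell genes. Foxp3 was lower relative to total counts, at 646, 817 and 750.5 CPM in control and 349 and 342 in MHCII-deleted libraries (-1.09 ± 0.12, edgeR, adjusted p = 0.000302). Per 1000 T cell gene counts it stood at 399, 524 and 469 against 570.1 and 474, and the groups overlapped (log2 fold change 0.17 ± 0.14, edgeR, adjusted p = 0.281). Ikzf2 (Helios), a factor that stabilises the Treg state, stood at 245, 253 and 248 per 1000 T cell gene counts against 286 and 267 (0.15 ± 0.15, edgeR, adjusted p = 0.384). Ikzf4 (Eos), a partner of Foxp3 in gene silencing, had a log2 fold change of 0.05 on this scale. Batf and Irf4, the AP-1 and interferon regulatory factors of effector Tregs, had -0.08 and -0.10. None of these 5 passed, and each of them changed sign in at least 1 alternative, Foxp3 and Ikzf2 to -0.048 and -0.065 when the libraries were scaled to 20 other pan-T cell genes.

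Of the 25 listed Treg transcription factors, 17 were lower and 0 higher relative to total counts (median -0.86). Relative to the T cell genes 10 were higher and 0 lower, with a median of 0.41, below the 1.37 of all genes. With the pan-T cell genes as the scale 7 were higher and 1 lower. Stat5a and Stat5b, which carry the interleukin 2 signal to Foxp3, were among those that rose. Stat5a stood at 90.2, 106 and 85 per 1000 T cell gene counts in control and 155 and 155 in MHCII-deleted libraries (0.73 ± 0.12, edgeR, adjusted p = 0.000446). Stat5b stood at 304, 328 and 275 against 566 and 448 (0.74 ± 0.12, edgeR, adjusted p = 0.000298). Relative to total counts both were lower (-0.53 and -0.53), so their direction depends on the scale. Cbfb, the binding partner of the Runx factors, rose by 1.07 ± 0.17 relative to the T cell genes, and Ikzf1 (Ikaros), a lymphoid chromatin regulator, by 0.67 ± 0.13 (edgeR, adjusted p = 0.00025 and 0.00123). Maf, a factor that drives Il10, stood at 90.6, 89.4 and 101 against 79.3 and 76.4 per 1000 T cell gene counts without overlap, but did not pass (-0.27 ± 0.15, edgeR, adjusted p = 0.138). With 20 other pan-T cell genes as the scale Maf passed (-0.49, edgeR, adjusted p = 0.0206).

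The activation receptors that mark tumor Tregs likewise lay near 0 relative to the T cell genes. The co-inhibitory receptor Ctla4 stood at 2023, 1931 and 1823 per 1000 T cell gene counts in control and 2008 and 2059.6 in MHCII-deleted libraries (0.08 ± 0.09, edgeR, adjusted p = 0.467). Il2ra, the high-affinity subunit of the interleukin 2 receptor, stood at 280.2, 269.7 and 247 against 282 and 275 (0.07 ± 0.15, edgeR, adjusted p = 0.698). Control and MHCII-deleted libraries overlapped for both. Icos, a co-stimulatory receptor, had 0.06 ± 0.13, Tnfrsf4 (OX40) -0.07 ± 0.12, Tnfrsf18 (GITR) -0.11 ± 0.11, Tnfrsf9 (4-1BB) -0.07 ± 0.17 and Tigit, a co-inhibitory receptor, 0.03 ± 0.16. None of these 5 passed (edgeR, adjusted p = 0.659, 0.619, 0.388, 0.739 and 0.869). The standard errors leave room for small differences in either direction. The sign of Ctla4, Il2ra, Icos and Tigit turned when Lck alone or the pan-T cell genes set the scale, and that of Tnfrsf4, Tnfrsf18 and Tnfrsf9 when Cd3g alone did. Cd4, the co-receptor for MHC class II, stood at 855, 908 and 771 against 1073 and 877 (0.21 ± 0.11, edgeR, adjusted p = 0.112), and passed without MHCII-deleted library 2 (0.35, edgeR, adjusted p = 0.017).

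Among the 25 surface receptors, 23 were lower relative to total counts, none higher and the median was -1.13. Relative to the T cell genes 6 were higher, 2 lower and the median was 0.11. With the pan-T cell genes as the scale 2 were higher, 3 lower and the median was -0.10, so the balance and the sign depend on the scaling genes. Without MHCII-deleted library 2, 4 were higher and 1 lower. Relative to Cd3e, Cd3g and Lck, the 2 that fell were Klrg1 and Tnfrsf25. Klrg1 (ENSMUSG00000030114, chromosome 6, 122270596 to 122282882, minus strand, GRCm38), a lectin-like receptor of terminally differentiated effector Tregs, stood at 215, 339.8 and 149 per 1000 T cell gene counts in control and 144 and 87.9 in MHCII-deleted libraries. Both MHCII-deleted libraries lay below the lowest control library, the first of them closely (-1.01 ± 0.33, edgeR, adjusted p = 0.0183). The call was lost without control library 2, the highest (-0.65, edgeR, adjusted p = 0.0592), and without MHCII-deleted library 2 (-0.70, edgeR, adjusted p = 0.139). Tnfrsf25 (DR3; ENSMUSG00000024793, chromosome 4, 152115934 to 152120119, plus strand), the receptor for TL1A that expands Tregs when engaged, stood at 56.1, 59.9 and 58.2 against 40.6 and 42.7. The libraries within each group lay close together and the groups were apart (-0.48 ± 0.14, edgeR, adjusted p = 0.0102). This call was kept when any single library was left out. It was lost with Cd3g alone as the scale (-0.36, edgeR, adjusted p = 0.0609) and with the replicate number as a block (-0.48, edgeR, adjusted p = 0.103).

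The receptors that rose included Lrrc32 (GARP), which holds latent TGF-beta on the Treg surface, at 581, 608 and 645 per 1000 T cell gene counts against 802 and 902 (0.48 ± 0.10, edgeR, adjusted p = 0.00198). Cd200, a ligand that restrains myeloid cells, stood at 36.3, 21 and 24.6 against 46.5 and 48.8 (0.80 ± 0.20, edgeR, adjusted p = 0.00465). Cd27, a co-stimulatory receptor of less differentiated T cells, rose by 0.36 ± 0.11, and Nrp1, a receptor of thymus-derived Tregs, by 0.27 ± 0.10 (edgeR, adjusted p = 0.0114 and 0.0325). The rise of Nrp1 was lost in 10 of its alternatives and that of Cd27 in 4, and that of Lrrc32 with the pan-T cell genes as the scale (0.26, edgeR, adjusted p = 0.0518).

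Crip1, a small LIM-domain protein (ENSMUSG00000006360, chromosome 12, 113146316 to 113153879, plus strand), was the other abundant lymphocyte gene that fell. It stood at 1031, 1060.5 and 1024 CPM in control and 321 and 326 in MHCII-deleted libraries, and per 1000 T cell gene counts at 637, 680.3 and 640.5 against 524 and 453 (-0.42 ± 0.13, edgeR, adjusted p = 0.0172). The call was lost with Cd3g alone as the scale (-0.30, edgeR, adjusted p = 0.118) and with the replicate number as a block (-0.43, edgeR, adjusted p = 0.0628). It was also lost without MHCII-deleted library 2, where the fall was -0.32. Lingo4, a leucine-rich repeat protein, stood at 6.43, 11.1 and 8.04 per 1000 T cell gene counts against 4.45 and 4.24 (-0.97 ± 0.37, edgeR, adjusted p = 0.0374), and its call was lost in 9 alternatives. Sfrp2, a secreted Wnt modulator of fibroblasts, stood at 3.13, 19.0 and 3.93 against 1.15 and 1.15 (-2.91 ± 0.90, edgeR, adjusted p = 0.0139), with most of its signal in control library 2. Without that library the fall was -1.61 (edgeR, adjusted p = 0.105), and it did not pass without either MHCII-deleted library. Of the 22 genes that fell, 6 were T cell receptor segments, 16 were under 10 CPM in both groups and 8 had no count in either MHCII-deleted library. With 9986 genes called in all, a threshold of 0.05 allows about 499 false calls, more than the 22 that fell, so a single call among them is not secure. Of them, 16 were also lower with each of the 4 other T cell scalings, and Klrg1 was the only one of Klrg1, Tnfrsf25 and Crip1 in that set.

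The start sites of a pair of genes that fell (Tnfrsf25 and Crip1) and of a pair that rose (Id3 and Tcf7, of the naive T cell list) are shown for sequence context. Each run covers 250 bases before to 50 after an annotated start (RefSeq, GRCm38.p6), written 5′ to 3′ on the gene's strand. Tnfrsf25 lies at chr4:152115684-152115983 (plus strand, the first of 2 start sites), Crip1 at chr12:113151762-113152061 (plus), Id3 at chr4:136143572-136143871 (plus) and Tcf7 at chr11:52282546-52282845 (minus, 1 of 2 start sites). Capitals mark the forkhead word GTAAACA, searched on both strands. It stood once in the Tcf7 run and not in the other 3. The other start site of Tcf7 (chr11:52282965-52283264), not shown, had 0 matches. Of the 11 runs read for genes named here (Crip1, Id3, Il7r, 4 starts of Lef1, and both starts of Tcf7 and of Tnfrsf25) the Tcf7 run shown was the 1 with a match. The word is held by 3.65% of 32851 promoters of this length. The AP-1 word TGANTCA was in none of the 4 and in 7.81% of all promoters.
Tnfrsf25: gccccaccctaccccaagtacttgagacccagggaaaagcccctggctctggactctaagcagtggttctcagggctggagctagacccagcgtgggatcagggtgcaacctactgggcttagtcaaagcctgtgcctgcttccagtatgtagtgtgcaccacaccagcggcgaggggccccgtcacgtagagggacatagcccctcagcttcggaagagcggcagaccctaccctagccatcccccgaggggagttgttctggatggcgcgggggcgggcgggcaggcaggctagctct
Crip1: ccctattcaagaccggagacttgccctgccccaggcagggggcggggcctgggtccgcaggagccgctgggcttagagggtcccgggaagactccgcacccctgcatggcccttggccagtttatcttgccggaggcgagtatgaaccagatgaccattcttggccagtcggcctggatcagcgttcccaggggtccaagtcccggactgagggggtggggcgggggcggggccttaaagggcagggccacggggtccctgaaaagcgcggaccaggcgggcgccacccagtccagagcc
Id3: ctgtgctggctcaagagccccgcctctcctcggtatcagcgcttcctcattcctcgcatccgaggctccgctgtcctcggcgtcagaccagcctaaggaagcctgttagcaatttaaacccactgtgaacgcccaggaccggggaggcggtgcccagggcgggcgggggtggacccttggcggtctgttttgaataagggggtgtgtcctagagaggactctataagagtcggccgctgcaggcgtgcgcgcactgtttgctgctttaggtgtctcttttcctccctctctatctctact
Tcf7: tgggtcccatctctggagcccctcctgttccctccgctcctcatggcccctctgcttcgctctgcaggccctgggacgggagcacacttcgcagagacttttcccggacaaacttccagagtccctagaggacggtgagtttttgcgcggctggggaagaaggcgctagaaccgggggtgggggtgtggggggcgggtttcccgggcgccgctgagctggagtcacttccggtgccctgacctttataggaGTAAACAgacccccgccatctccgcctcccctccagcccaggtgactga

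**Figure D2:**
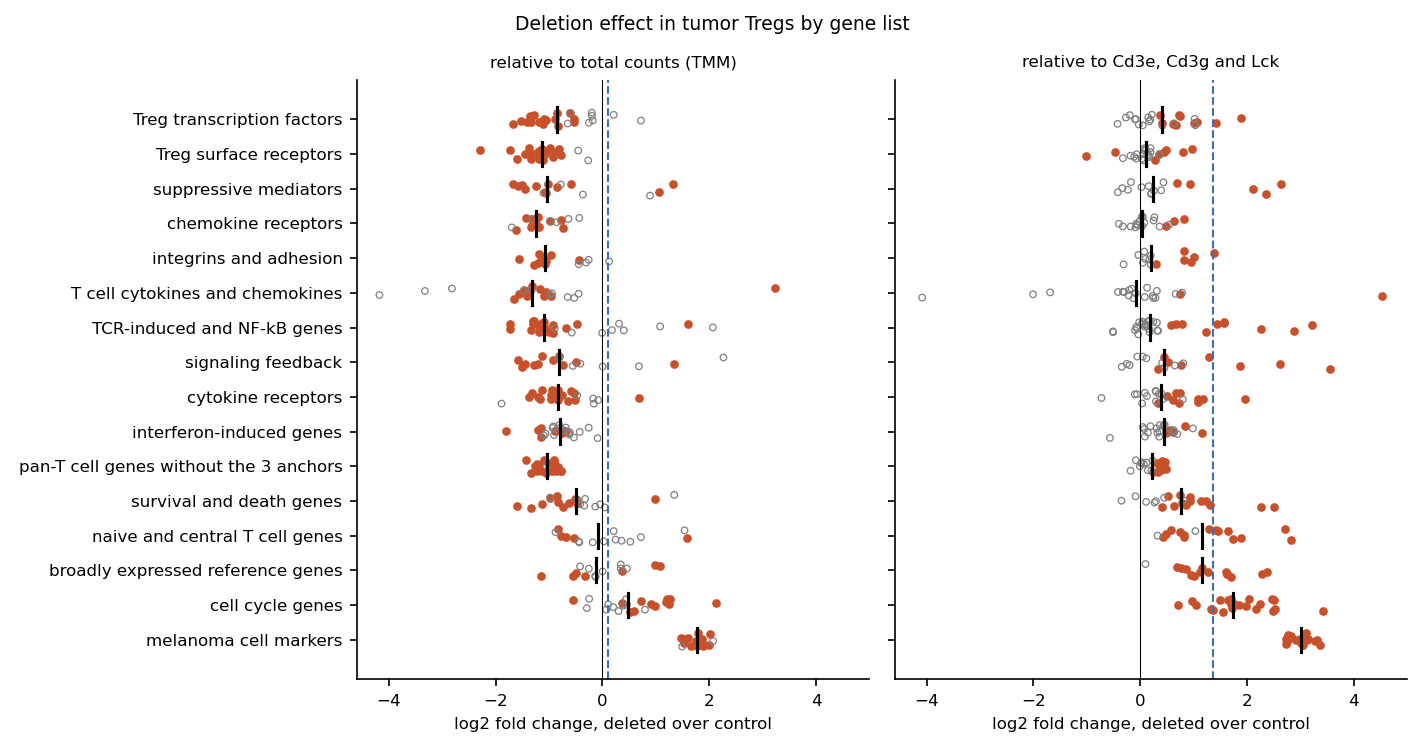
Each point is the log2 fold change of a gene (horizontal axis, MHCII-deleted over control tumor), by gene list, relative to total counts on the left and to Cd3e, Cd3g and Lck on the right. Filled points passed the edgeR test, black bars are list medians and the dashed line is the median of all tested genes (0.10 and 1.37). Treg, chemokine receptor and pan-T cell lists sit near 0 on the right, and naive, cell cycle and melanoma lists sit near or above the line.

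Most suppressive mediators did not pass the test relative to the T cell genes. Of 16 tested, 10 were lower and 2 higher relative to total counts (median -1.03), and 5 were higher and 0 lower relative to the T cell genes (median 0.23; 4 higher and 2 lower with the pan-T cell genes as the scale). Il10, the anti-inflammatory cytokine of effector Tregs, stood at 77.9, 75.7 and 81.0 CPM in control and 23.4 and 28.6 in MHCII-deleted libraries (-1.59 ± 0.16, edgeR, adjusted p = 0.000207). Per 1000 T cell gene counts it stood at 48.1, 48.6 and 50.6 against 38.3 and 39.6. Both MHCII-deleted libraries lay below all controls, but the difference did not pass (-0.33 ± 0.15, edgeR, adjusted p = 0.0693). It passed with DESeq2 (-0.33, adjusted p = 0.0469), with Lck alone as the scale (-0.47, edgeR, adjusted p = 0.0193) and with the pan-T cell genes (-0.55, edgeR, adjusted p = 0.00948). The mediators that rose were led by Anxa1, a phospholipid-binding protein, at 46.4, 67.9 and 58.7 per 1000 T cell gene counts against 389.5 and 202, and Lgals3, a galectin, at 134, 161 and 135 against 1333 and 447. Their log2 fold changes were 2.36 ± 0.30 and 2.63 ± 0.38 (edgeR, adjusted p = 6.45e-05 and 0.000159). Itgav, an integrin chain that activates TGF-beta, rose by 2.11 ± 0.36, and Lgals1, a galectin abundant in effector Tregs, by 0.68 ± 0.18 (edgeR, adjusted p = 0.000484 and 0.00681). Melanoma or myeloid cells also express Anxa1, Lgals3 and Lgals1 strongly, and which cells gave these rises was not tested. Anxa1 stood at 5.21 to 6.88 CPM in control LN. The median on the T cell scale was 1.37 over all genes and 3.01 over the melanoma markers. Lgals1 did not pass without MHCII-deleted library 1 (0.36, edgeR, adjusted p = 0.109).

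T cell cytokines gave few calls. Of 21 tested, 10 were lower and 1 higher relative to total counts (median -1.32), and 2 were higher and 0 lower relative to the T cell genes (median -0.08). Ccl3, a chemokine of activated T and myeloid cells, stood at 17.4, 18.2 and 15.7 per 1000 T cell gene counts against 34.1 and 23.4 (0.75 ± 0.25, edgeR, adjusted p = 0.022). The call was lost without control library 3 (0.69, edgeR, adjusted p = 0.0615), without MHCII-deleted library 1 (0.45, edgeR, adjusted p = 0.201) and with the pan-T cell genes as the scale (0.53, edgeR, adjusted p = 0.0854). The other cytokine called was Il4, at 0, 0.0330 and 0.0710 CPM in control and 0.504 and 0.200 in MHCII-deleted libraries, a level too low to read a ratio from. Tnfsf11 (RANKL), a TNF family cytokine of activated T cells, stood at 33.8, 39.3 and 34.9 per 1000 T cell gene counts against 25.4 and 28.6 without overlap (-0.41 ± 0.17, edgeR, adjusted p = 0.0506), and it passed with the pan-T cell genes as the scale (-0.63, edgeR, adjusted p = 0.0095).

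Of 19 chemokine receptors tested, 13 were lower relative to total counts, 0 higher and the median was -1.24. Relative to the T cell genes 3 were higher, 0 lower and the median was 0.04. With the pan-T cell genes as the scale 1 was higher and the median was -0.18. Ccr8, the receptor most typical of tumor Tregs, stood at 416, 517 and 469 per 1000 T cell gene counts against 412 and 475, with overlap (-0.07 ± 0.13, edgeR, adjusted p = 0.63; 0.038 with Cd3g alone as the scale). The 3 that rose relative to Cd3e, Cd3g and Lck were Ccr7, which guides cells to the T cell zone and into lymphatics, S1pr1, which lets cells leave tissue, and Cxcr5, which leads to B cell follicles. Ccr7 stood at 826, 518 and 899 per 1000 T cell gene counts in control and 1266 and 1376 in MHCII-deleted libraries, and S1pr1 at 322, 402 and 275 against 460.3 and 466. Neither overlapped between the groups (log2 fold changes 0.82 ± 0.21 and 0.48 ± 0.15, edgeR, adjusted p = 0.00456 and 0.0143). Cxcr5 stood at 20.3, 27.8 and 20.1 against 43.4 and 27.6, with overlap (0.64 ± 0.25, edgeR, adjusted p = 0.038). S1pr1 and Cxcr5 did not pass with the pan-T cell genes as the scale (0.26 and 0.42, edgeR, adjusted p = 0.107 and 0.144). The same held with only the 5 tumor libraries (0.48 and 0.64, edgeR, adjusted p = 0.0551 and 0.0885) and with the replicate number as a block (0.36 and 0.54, edgeR, adjusted p = 0.114 and 0.164). Cxcr5 did not pass without control library 1 or control library 3 either (0.57 and 0.56, edgeR, adjusted p = 0.0996 and 0.105). Without MHCII-deleted library 1 its rise was 0.28.

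Adhesion molecules gave 6 higher and 0 lower of 14 relative to the T cell genes (median 0.20; 5 and 1 with a median of -0.016 on the pan-T cell scale), against 0 higher and 10 lower relative to total counts (median -1.07). Icam2, an adhesion ligand of lymphocytes and endothelium, stood at 34.3, 33.4 and 34.0 per 1000 T cell gene counts in control and 87.7 and 88.7 in MHCII-deleted libraries, above every control (1.38 ± 0.11, edgeR, adjusted p = 8.82e-06). Cd44, the hyaluronan receptor of activated lymphocytes and many other cells, rose by 0.83 ± 0.12, and the integrin chain Itgb1 by 0.95 ± 0.21 (edgeR, adjusted p = 0.00017 and 0.0022). Icam2, Cd44 and Itgb1 passed in every alternative run.

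Most genes of naive and central T cells were higher on the T cell scale. Of 16, 14 were higher relative to the T cell genes and 0 lower, with a median of 1.16. Over all genes 71.6% were higher and the median was 1.37. Relative to total counts 1 was higher and 4 lower, with a median of -0.08. Lef1, a Wnt pathway factor of naive T cells, stood at 95.2, 91.2 and 93.4 per 1000 T cell gene counts in control and 141 and 137 in MHCII-deleted libraries (0.58 ± 0.10, edgeR, adjusted p = 0.000458). Its partner Tcf7 (TCF-1) stood at 64.1, 49.8 and 61.5 against 111 and 213 (1.47 ± 0.22, edgeR, adjusted p = 0.000216). Both groups were apart for each gene, and Tcf7 was higher in MHCII-deleted library 2 than in library 1. Id3, an inhibitor of E proteins that sustains resting Tregs, stood at 13.2, 14.6 and 15.1 against 35.2 and 60.6 (1.75 ± 0.20, edgeR, adjusted p = 3.64e-05). Il7r, the survival receptor of resting T cells, stood at 129, 139 and 121 against 285 and 153 (0.76 ± 0.21, edgeR, adjusted p = 0.00815), and it did not pass without MHCII-deleted library 1 (0.24, edgeR, adjusted p = 0.13). Foxp1, which holds T cells quiescent, stood at 59.5, 56.1 and 66.9 against 156 and 141 (1.29 ± 0.13, edgeR, adjusted p = 1.86e-05).

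Several members of the naive list rested on a single library. Klf2, which switches on S1pr1, stood at 53.5, 24.0 and 23.3 per 1000 T cell gene counts in control and 44.4 and 396 in MHCII-deleted libraries, so only library 2 lay above the controls (2.71 ± 0.69, edgeR, adjusted p = 0.00494). Foxo1, its upstream factor, stood at 56.6, 37.6 and 57.0 against 48.7 and 326 (1.90 ± 0.55, edgeR, adjusted p = 0.0105). Without library 2 their log2 fold changes were 0.40 and -0.048, and neither passed (edgeR, adjusted p = 0.435 and 0.869). The list as a whole kept a median of 0.70 with 10 members higher without library 2, and 1.15 with 13 members higher without library 1. Lef1, Tcf7, Id3 and Foxp1 passed in every alternative run. Igfbp4, a growth factor binding protein expressed in naive T cells and in other cell types, stood at 23.4, 29.7 and 35.6 against 207 and 213 (2.83 ± 0.37, edgeR, adjusted p = 8.59e-05). Against total counts Tcf7 and Id3 did not pass (0.25 and 0.52, edgeR, adjusted p = 0.524 and 0.116). How much of the level of these genes came from cells other than the sorted Tregs was not tested.

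**Figure D3:**
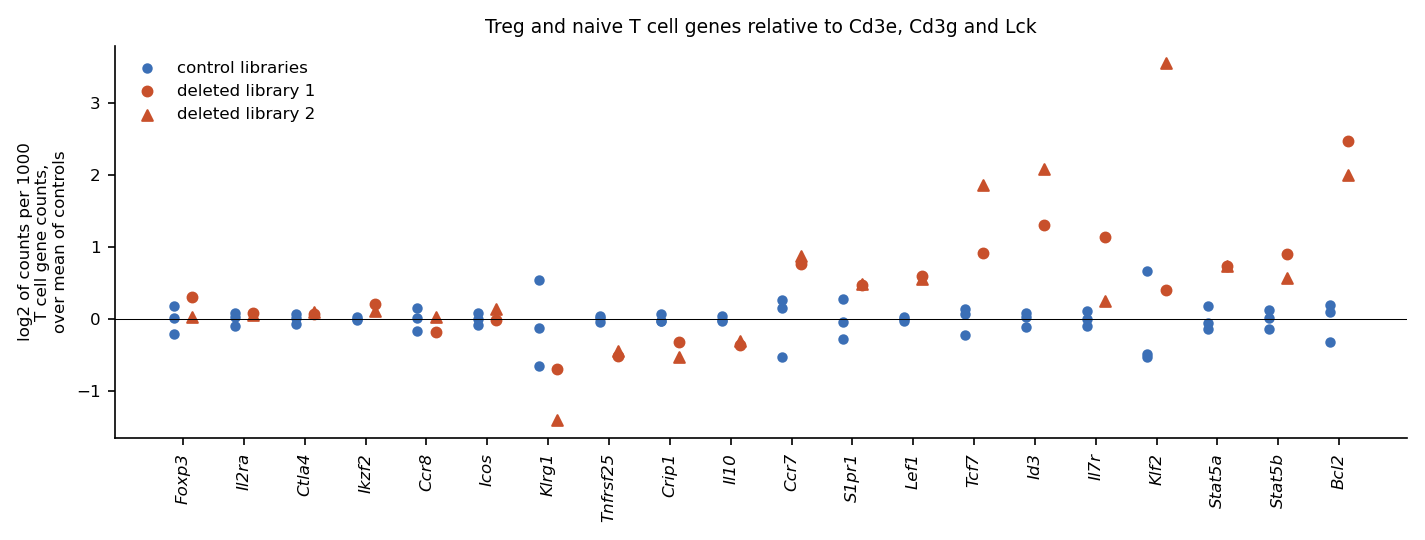
The vertical axis gives the log2 ratio of each library's level per 1000 T cell gene counts to the mean of the 3 control libraries, for named Treg and naive T cell genes (horizontal axis). Foxp3 to Icos lie around 0, Klrg1, Tnfrsf25, Crip1 and Il10 lie below, Lef1, Tcf7 and Id3 lie above in both MHCII-deleted libraries, and Klf2 lies far above in library 2 only.

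Cytokine receptors rose in part. Of 23, 17 were lower and 1 higher relative to total counts (median -0.83), and 10 were higher and 0 lower relative to the T cell genes (median 0.39). Il6st (gp130), the shared signaling chain of the interleukin 6 family, stood at 88.2, 98.6 and 77.7 per 1000 T cell gene counts in control and 191 and 182 in MHCII-deleted libraries (1.08 ± 0.12, edgeR, adjusted p = 3.84e-05). Ifngr2, the signaling chain of the interferon gamma receptor, stood at 28.5, 33.9 and 32.0 against 134 and 109.8 (1.96 ± 0.19, edgeR, adjusted p = 1.67e-05), and it was the 1 receptor that rose relative to total counts as well (0.69 ± 0.17, edgeR, adjusted p = 0.0142). Il10rb, a chain of the interleukin 10 receptor, rose by 1.17 ± 0.11, and Ifnar2, of the type I interferon receptor, by 0.66 ± 0.10 (edgeR, adjusted p = 1.82e-05 and 0.000254). These 4 receptors are expressed in many cell types and passed in every alternative run. The lymphoid interleukin 2 chain Il2rb had a log2 fold change of 0.16 ± 0.13 (edgeR, adjusted p = 0.283).

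Genes induced by the T cell receptor or by NF-kB did not move as a block. Of 31, 22 were lower and 1 higher relative to total counts (median -1.09). Relative to the T cell genes 10 were higher and 0 lower, and the median was 0.18. Without MHCII-deleted library 2, 6 were higher and 4 lower, and with the pan-T cell genes as the scale 8 were higher and 2 lower with a median of -0.045. Dusp6, a phosphatase that turns off ERK, stood at 36.6, 38.8 and 32.9 per 1000 T cell gene counts in control and 334 and 199 in MHCII-deleted libraries (2.88 ± 0.20, edgeR, adjusted p = 6.61e-06). Jun, an AP-1 subunit, stood at 261, 292 and 283 against 758 and 747, and Myc, a growth regulator, at 45.7, 42.1 and 55.1 against 139 and 143 (log2 fold changes 1.43 ± 0.11 and 1.57 ± 0.17, edgeR, adjusted p = 7.87e-06 and 2.91e-05). Dusp4, a phosphatase of T cell activation, rose by 0.79 ± 0.11 (edgeR, adjusted p = 0.000106) while it was lower relative to total counts (-0.48). Nfkbid, an atypical inhibitor of NF-kB needed for Treg development, stood at 300.4, 286 and 376 against 161 and 290.1, with overlap (-0.51 ± 0.24, edgeR, adjusted p = 0.0768). Only library 1 lay below all controls, and without library 2 the fall passed (-0.99, edgeR, adjusted p = 0.00234). The signaling feedback list gave 8 higher and 0 lower of 18 on the T cell scale (median 0.45; 6 and 2 with the pan-T cell genes), against 1 higher and 10 lower relative to total counts (median -0.81). Its calls included Rnf128 (GRAIL), a ubiquitin ligase of anergy (2.61 ± 0.33), the kinase Pim2 (1.29 ± 0.20), the G protein regulator Rgs19 (0.76 ± 0.12) and the diacylglycerol kinase Dgka (0.45 ± 0.10), with adjusted p of 6.82e-05, 0.000246, 0.000256 and 0.00281 (edgeR).

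Survival, cell cycle and reference genes were closer to the median of all genes than the Treg lists were. Of 20 survival and death genes 13 were higher and 0 lower relative to the T cell genes (median 0.76), against 1 and 10 relative to total counts (median -0.50). Bcl2, the anti-apoptotic protein of resting lymphocytes and of melanocytes, stood at 20.3, 15.2 and 21.6 per 1000 T cell gene counts against 106 and 76.3 (2.26 ± 0.20, edgeR, adjusted p = 1.32e-05). Cflar, an inhibitor of death receptor signaling, rose by 1.31 ± 0.13, and the pro-apoptotic Bax and Bid by 1.14 ± 0.14 and 1.23 ± 0.17 (edgeR, adjusted p = 1.81e-05, 6.15e-05 and 0.00014). All 22 cell cycle genes were higher relative to the T cell genes (median 1.74), and 11 were higher and 1 lower relative to total counts (median 0.49). Mcm2, a subunit of the replication helicase, stood at 128, 132 and 115 against 527 and 468 (1.99 ± 0.12, edgeR, adjusted p = 6.36e-06), and Rrm2, which makes deoxynucleotides, rose by 2.17 ± 0.18 (edgeR, adjusted p = 9.58e-06). Of 15 broadly expressed reference genes 14 were higher relative to the T cell genes (median 1.15), and 3 were higher and 4 lower relative to total counts (median -0.13). Among them Gapdh, of glycolysis, rose by 2.29 ± 0.24 and Sdha, of the respiratory chain, by 1.64 ± 0.13 on the T cell scale (edgeR, adjusted p = 2.78e-05 and 9.51e-06).

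Interferon-induced genes gave 6 higher and 0 lower of 24 relative to the T cell genes (median 0.45), and 0 higher and 8 lower relative to total counts (median -0.80). The 6 became 2 with the pan-T cell genes as the scale (median 0.24) and 3 when either MHCII-deleted library was left out. Irf9, the DNA-binding subunit of the type I interferon factor, stood at 139.6, 126 and 132 per 1000 T cell gene counts against 188 and 203 (0.56 ± 0.13, edgeR, adjusted p = 0.00285). Ifit2, an antiviral protein, rose by 1.15 ± 0.29, Stat2 by 0.84 ± 0.27 and Gbp2, a guanylate-binding protein, by 0.61 ± 0.22 (edgeR, adjusted p = 0.00448, 0.0188 and 0.0275). Gbp2 lost its call in 9 alternatives, among them those without MHCII-deleted library 2 (0.49, edgeR, adjusted p = 0.138), control library 2 or control library 3 (0.45 and 0.59, edgeR, adjusted p = 0.0803 and 0.0692). Stat2 lost it in 4, among them those without MHCII-deleted library 1 (0.71, edgeR, adjusted p = 0.103) and control library 1 (0.75, edgeR, adjusted p = 0.0569). Cxcl10, an interferon-induced chemokine, was lower relative to total counts, at 392, 227 and 234 CPM against 62.6 and 99.6 (-1.81 ± 0.54, edgeR, adjusted p = 0.034), and did not pass relative to the T cell genes (-0.57 ± 0.50, adjusted p = 0.326). Its call on total counts was lost when any of the 5 tumor libraries was left out (-2.18 to -1.51) and in 3 other alternatives. Of the 8 MHC class II presentation genes 3 were lower relative to total counts and 1, the peptide-loading chain H2-DMb1, was higher relative to the T cell genes (1.72 ± 0.51, edgeR, adjusted p = 0.0119). Without MHCII-deleted library 2 this call was lost (1.46, edgeR, adjusted p = 0.0697), and the median of the list went from 0.45 to -0.31.

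The choice of T cell genes sets the zero of the second scale. The 20 pan-T cell genes other than Cd3e, Cd3g and Lck were all lower relative to total counts (median -1.03). Relative to the 3 T cell genes they had a median of 0.23 and ranged from -0.18 (Sit1) to 0.49 (Themis), and 10 of the 20 were higher. Ubash3a, a brake on T cell receptor signaling, rose by 0.47 ± 0.11 and Ptpn22, a phosphatase with the same role, by 0.42 ± 0.13. Cd28, the main co-stimulatory receptor, rose by 0.35 ± 0.10 and Trat1, an adaptor of the receptor complex, by 0.42 ± 0.13 (edgeR, adjusted p = 0.00242, 0.0113, 0.00944 and 0.0138). Of the 3 receptors described above, Cd27 and Nrp1 rose by 0.36 and 0.27 and Lrrc32 by 0.48, a range that holds these 4 values. None of the 4 passed when the 20 pan-T cell genes set the scale. The 4 belong to those 20, so that scale draws them toward 0 by construction and this loss decides nothing. Other alternatives also ended calls. Trat1 did not pass with Lck alone as the scale (0.29, edgeR, adjusted p = 0.0567). Trat1 and Cd28 did not pass with only the 5 tumor libraries (0.42 and 0.35, edgeR, adjusted p = 0.0891 and 0.0603). None of the 4 passed with the replicate number as a block. Scaled to these 20 genes, 9034 genes were higher and 67 lower.

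Away from chosen lists, genes were grouped by their level in LN Tregs, whose libraries hold few melanoma transcripts and do not enter the tumor contrast itself. Relative to the T cell genes the median log2 fold change was 2.48 for the 3227 genes under 1 CPM in LN, 1.59 for 2363 genes at 1 to 10 CPM and 1.32 for 5928 genes at 10 to 100 CPM. It was 1.02 for 2307 genes at 100 to 1000 CPM and 0.41 for the 95 genes over 1000 CPM. On the total-count scale the same medians went from 1.23 through 0.32, 0.05 and -0.24 to -0.86. The share of genes called higher on the T cell scale did not follow the same order, at 38.6%, 58.8%, 88.3%, 88.2% and 62.1% from the lowest to the highest level. Genes under 1 CPM in LN could pass the filter on low counts through tumor libraries alone, and counts in the 2 MHCII-deleted ones were enough, so the high median of that group can be set in part by the filter. The genes over 1000 CPM in LN had the median closest to that of the T cell genes. Cd3e, Cd3g and Lck belong to that group themselves (1791, 1308 and 2386 CPM in control LN), and the scaling holds them near 0.

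**Figure D4:**
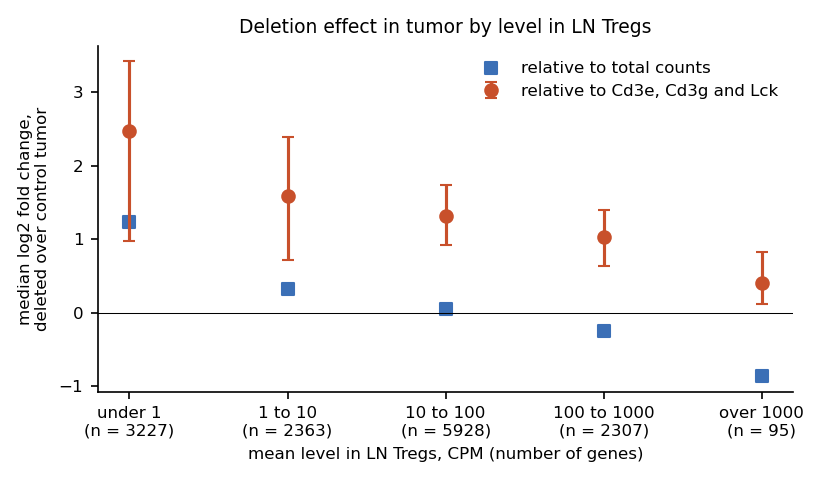
Median log2 fold change of MHCII-deleted over control tumor libraries (vertical axis) for genes binned by their mean CPM in the 5 LN libraries (horizontal axis). Circles with quartile bars are relative to Cd3e, Cd3g and Lck and fall from 2.48 to 0.41, and squares are relative to total counts and fall from 1.23 to -0.86.

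Markers of cells other than Tregs differed between the groups, and their part in the results above was not tested. All 15 melanoma markers were higher relative to the T cell genes (2.73 to 3.37, median 3.01) and 13 of 15 relative to total counts. Myeloid markers summed to 503 to 679 CPM in control and 604 to 697 in MHCII-deleted libraries, and 4 of 17 were higher relative to the T cell genes, Apoe among them (60.6, 65.3 and 128 per 1000 T cell gene counts against 645 and 606, 2.89 ± 0.40, edgeR, adjusted p = 0.000122). B and plasma cell markers summed to 26.9 to 50.0 CPM against 47.2 to 60.6, with Cd79a higher relative to the T cell genes (1.57 ± 0.56, edgeR, adjusted p = 0.0286; lost in 7 alternatives, with adjusted p = 0.0746, 0.0575 and 0.0961 without control library 1 and MHCII-deleted libraries 1 and 2) and Cd79b lower relative to total counts (11.8, 12.5 and 7.07 CPM against 1.68 and 3.32). CD8 T and NK cell markers summed to 619 to 926 CPM against 380 to 388, with Cd8a at 2.75, 4.99 and 14.6 CPM against 1.51 and 0.944. Of these, Eomes, a factor of cytotoxic cells, was higher relative to the T cell genes but stood at only 2.72 and 2.37 CPM in MHCII-deleted libraries. Stromal markers ranged from 495 to 4441 CPM in control and from 338 to 756 in MHCII-deleted libraries. These sums read differently per 1000 T cell gene counts. Myeloid markers summed to 323 to 425 in control and 966 to 986 in MHCII-deleted libraries, and B and plasma cell markers to 16.6 to 32.1 against 77.1 to 84.0. CD8 T and NK cell markers summed to 397 to 572 against 538 to 621, and stromal markers to 306 to 2849 against 551 to 1048, both with overlap. Prox1 itself was at 3.02, 4.59 and 5.08 CPM against 1.61 and 7.41.

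The 15 largest rises on the T cell scale by the naming rule were Mmrn1, Ackr2, Mecom, Adgrf5, Itga9, Tie1, Mreg, Lyve1, P3h3, Stard13, Flt4, Cldn5, Tbx2, Dapk3 and Hes1. A gene near 0 in control could meet the low-count filter and the 10 CPM minimum of that rule through the MHCII-deleted libraries alone. The size of such a rise can be set in part by this selection. Without MHCII-deleted library 2, 10 of the 15 did not pass, and without library 1, 1 did not. The listed markers of blood and lymphatic endothelium summed to 102 to 142 CPM in control libraries and to 126 and 369 in MHCII-deleted ones. Relative to the T cell genes 7 of 11 were higher (median 3.12), against 71.6% of all genes (median 1.37). Relative to total counts 3 were higher and 1 lower (median 1.90). Vwf and Pecam1 were among those higher on the T cell scale, with a lower p than Flt4 and Pdpn, described below. Lyve1, the hyaluronan receptor of lymphatic vessels, stood at 5.47, 1.16 and 1.88 CPM in control and 2.72 and 83.3 in MHCII-deleted libraries, and Flt4, the receptor for Vegfc, at 4.31, 0.264 and 3.16 against 10.6 and 60.8. Mmrn1, a matrix protein of lymphatic endothelium, stood at 1.34, 0 and 0 CPM against 5.34 and 25.4. Their log2 fold changes were 5.08 ± 1.12, 4.98 ± 0.92 and 6.27 ± 1.58 relative to the T cell genes (edgeR, adjusted p = 0.00289, 0.000739 and 0.00729). With DESeq2 Mmrn1 did not pass (6.31, adjusted p = 0.155). Without library 2, Lyve1 and Mmrn1 did not pass (1.33 and 4.95, edgeR, adjusted p = 0.337 and 0.0779), while Flt4 did. Endothelial markers called higher numbered 4 without library 2. Pdpn (podoplanin), a membrane protein of lymphatic endothelium and other cells, stood at 4.06, 6.97 and 6.04 CPM against 10.1 and 14.1 and passed in every alternative run (2.33 ± 0.45, edgeR, adjusted p = 0.00122). Relative to total counts the largest rises were Mecom, Itga9, P3h3, Mreg, Flt4, Tbx2, Hes1, Sort1, Rnf217 and Nckap1, between 3.52 and 4.41 on the log2 scale. Of these 10, 9 did not pass without library 2, Itga9 at 1.4, Flt4 at 2.04, Tbx2 at 2.13 and Hes1 at 0.57 (edgeR, adjusted p = 0.491, 0.231, 0.0742 and 0.785), and Mecom did not pass without library 1 either (4.30, edgeR, adjusted p = 0.0946). Itga9, an integrin chain of lymphatic valves, stood at 0.366, 0.429 and 4.19 CPM against 4.37 and 63.5, Tbx2, a factor of the melanocyte lineage, at 3.27, 1.75 and 6.25 against 16.4 and 82.6, and Hes1, a target of Notch, at 0.947, 1.06 and 1.53 against 1.75 and 28.8. The largest falls relative to total counts were Sfrp2, Plac8, Klrg1, Lingo4, Muc1, Cd79b, Rab26, Col6a1, Slc15a3 and Cxcl10, between -4.14 and -1.81. Of these, 4 did not pass without library 1 (Sfrp2, Muc1, Cxcl10 and Col6a1) and 4 without library 2 (Muc1, Cxcl10, Rab26 and Col6a1). Plac8, a small protein of leukocytes, stood at 34.3, 96.3 and 29.7 CPM against 10.2 and 7.92.

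Among the tumor libraries, library 2 of the MHCII-deleted mice also differed by base composition. Genes whose longest transcript has a window of 100 bases with more than 85% GC had a median log2 difference from controls of 1.19 in library 1 and 2.11 in library 2, per T cell gene count. For genes whose richest window has 60 to 65% GC the medians were 1.37 and 1.06. Klf2, Foxo1, Itga9, Flt4 and Tbx2 all have windows above 80% GC. With a GC index of each library as a covariate (the mean log2 level of expressed genes that have a GC-rich window minus that of the others), the falls of Klrg1 and Crip1 were -0.57 and -0.21 and did not pass (edgeR, adjusted p = 0.215 and 0.221). The rise of Ccr7 did not pass with that covariate either (0.60, edgeR, adjusted p = 0.0570). Counting both scales, 34 calls of single genes were lost with it. The naive list keeps 9 of 10 members higher, with a median of 0.79, when genes with a window above 75% GC are left out. In LN the index was -0.20, -0.20 and -0.29 in control and 0.14 and 0.085 in MHCII-deleted libraries, so there it differed between the genotypes.

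**Figure D5:**
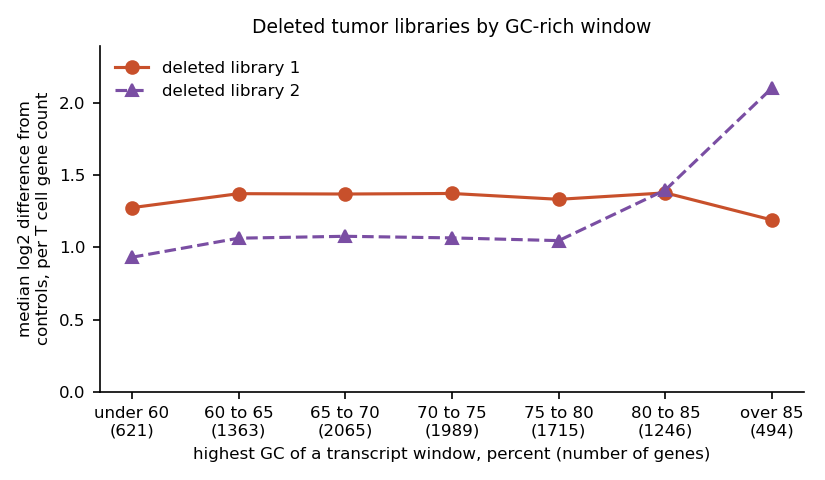
Median log2 difference of each MHCII-deleted tumor library from the control tumor libraries per T cell gene count (vertical axis), for genes grouped by the highest GC percentage of any 100-base window of the longest transcript (horizontal axis, number of genes in brackets). Library 1 stays between 1.19 and 1.38, and library 2 rises from 0.93 to 2.11.

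Whether the deletion effect differed between tumor and LN was tested as an interaction on the T cell scale. In tumor 6818 genes had a higher value (49%) and 19 a lower one (0.136%), with a median of 1.19. With the GC index as a covariate 4718 were higher and 9 lower. The index differed between the genotypes in LN, and its part in the LN values below was not tested. For several Treg effector genes the LN value was the lower. Il10 stood at 5.52, 4.79 and 4.82 per 1000 T cell gene counts in control LN and 1.84 and 1.76 in MHCII-deleted LN (-1.48 ± 0.16, edgeR, adjusted p = 0.0101), a larger fall than in tumor (1.15 ± 0.22 for tumor minus LN, edgeR, adjusted p = 0.00191). Ctla4 stood at 279, 273 and 286 against 173 and 202 in LN (-0.57 ± 0.10, edgeR, adjusted p = 0.019) and Icos at 564, 553 and 514 against 289.7 and 386 (-0.69 ± 0.13, edgeR, adjusted p = 0.0232). Their tumor values near 0 differed from these falls by 0.65 ± 0.13 and 0.75 ± 0.18 (edgeR, adjusted p = 0.00269 and 0.0059). Klrg1, Tnfrsf25 and Crip1 did not differ detectably between the tissues (0.01 ± 0.45, -0.38 ± 0.19 and -0.22 ± 0.19, edgeR, adjusted p = 1.0, 0.133 and 0.383), and neither did Foxp3 (0.26 ± 0.19, adjusted p = 0.301). Lef1, Tcf7, Id3 and Foxp1 had values in LN of 0.15, 0.37, 0.09 and 0.28, which did not pass, and each was higher in tumor by the interaction test (edgeR, adjusted p = 0.0281, 0.0166, 0.00113 and 0.00148). For Ccr7 and S1pr1 the difference between tissues did not pass (0.63 ± 0.29 and 0.46 ± 0.21, edgeR, adjusted p = 0.104 and 0.0956).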

How the data were processed

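The deposited table holds the authors' counts for each Ensembl gene, whole numbers without normalization. Per the labels' protocols, cDNA was amplified from little RNA (SMARTer Ultra Low), turned into libraries with Nextera XT and read from 1 end. According to the submitters' processing notes, STAR 2.4 and featureCounts 1.4.6 were used after CASAVA 1.8.2, with the build GRCm38. The annotation release and strand setting are not given in the sources used here, so overlapping and antisense genes are uncertain. Amplified reads without molecular identifiers are not independent molecules.

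All 21556 identifiers matched GENCODE M21. In R 4.3.3, edgeR 4.0.16 fitted a quasi-likelihood model with robust spread to all 10 libraries as 4 group means, after filterByExpr (minimum count 10), which left 13920 genes. P-values were adjusted by Benjamini-Hochberg at 0.05, and the SE is the fold change divided by the square root of F. Libraries were scaled by TMM, or to the geometric mean of Cd3e, Cd3g and Lck counts (pseudocount 0.5). CPM are TMM-normalised and levels are not corrected for gene length. Summed markers were compared by an exact permutation test. The model was tested on simulated data. Tumor libraries of the same group had the same count for 2.64% of tested genes at most. Whether they agreed within sampling noise was not tested.

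The genes named are Cd3e, Cd3g, Lck, Cd4, Foxp3, Il2ra, Ctla4, Il10, Tyrp1 and Vegfc, the called genes with the largest changes (15 in each direction on the T cell scale, 10 on the other, at least 10 CPM, no overlap) and of each list at most 4 called members with the lowest p. Predicted genes and receptor segments were left out of the rule. One gene that the rule names is not reported here. Genes near 0 on the T cell scale, Maf, Tnfsf11, Nfkbid, Cd27, Nrp1, Klf2, Foxo1, Lef1, Il7r, Ikzf4, Batf and Irf4 were added after their values were seen. The comparison, gene lists and tests were chosen with earlier results of these data known. Alternatives were RLE factors, DESeq2 1.42.0, no filter, a non-robust spread, a replicate block, the 5 tumor libraries alone, other T cell scalings and omission of each library.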

Additional observations from a re-analysis of the deposited data

Results flagged for a closer look

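For 101 genes followed on the T cell scale, 45 deletion effects (44.6%) differed between tumor and LN by the interaction test on the T cell scale (edgeR, adjusted p under 0.05). That share is near the background, since 49% of all genes had a higher value in tumor, and is no result about these genes. The values below are log2 differences, tumor minus LN. Of Treg effector genes, Il10 differed by 1.15, Icos by 0.75 and Ctla4 by 0.65, each with a fall in LN. Of naive T cell genes, Igfbp4 differed by 2.46, Id3 by 1.65, Tcf7 by 1.10, Foxp1 by 1.01 and Lef1 by 0.43. Among receptors and signal carriers, Ifngr2 differed by 1.8, Icam2 by 1.23, Il6st by 1.10, Cd44 by 1.05, Il10rb by 1.04, Itgb1 by 1.00, Stat5a by 0.62, Stat5b by 0.51, Cd28 by 0.44, Cd27 by 0.41, Trat1 by 0.52 and Ifnar2 by 0.41.

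Activation and feedback genes differed as well: Dusp6 by 2.61, Rnf128 by 2.53, Ccl3 by 1.67, Myc by 1.54, Pim2 by 1.37, Rgs19 by 0.79, Jun by 0.78, Dusp4 by 0.62 and Irf9 by 0.54. Survival genes differed by 1.63 (Bcl2), 1.21 (Cflar), 1.14 (Bax) and 1.10 (Bid). Cell cycle and reference genes differed by 2.47 (Rrm2), 2.34 (Gapdh), 1.96 (Mcm2) and 1.56 (Sdha). Genes that melanoma or myeloid cells express strongly differed by 3.22 (Vegfc), 3.04 (Lgals3), 2.75 (Anxa1), 1.91 (Tyrp1), 1.81 (Apoe) and 1.08 (Lgals1), and Eomes by 3.08. Sfrp2 was the 1 gene of these with a lower value in tumor, -3.54.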

How the results depend on the processing

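Gene results recomputed in up to 21 alternatives gave 2691 values, of which 2421 kept their direction and side of the threshold and 270 did not. The 82 genes called on the T cell scale included 44 that passed in every alternative. Relative to total counts, the genes higher numbered 561 with a replicate block and 1142 with only the 5 tumor libraries, and the genes lower 741 with a replicate block. Relative to the T cell genes, those higher numbered 6309 without GC-rich genes, where fewer genes were tested. Those lower numbered 40 with DESeq2, 40 with Lck alone, 67 with pan-T cell genes and 13 with a replicate block, and 14 to 44 when a library was left out (38 without control library 1, 14 without MHCII-deleted library 1, 44 without MHCII-deleted library 2). For tumor minus LN, 3708 genes were higher and 4 lower with a replicate block. Those lower numbered 29 with pan-T cell genes, 11 without GC-rich genes, 9 with the GC index as covariate and 12 to 169 when a library was left out (12 without LN control library 3 or LN MHCII-deleted library 2, 169 without tumor MHCII-deleted library 2). The cause was not tested. The melanoma sum per T cell gene count gave 2.74 to 3.26 on the log2 scale against 2.93.

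Signs turned mainly for values near 0. With pan-T cell genes as the scale Foxp3 was -0.048, Cd4 -0.0082, Il2ra -0.15, Ctla4 -0.14, Ikzf2 -0.065, Icos -0.15, Il2rb -0.053, Tigit -0.18 and Ikzf4 -0.16. With Lck alone Il2ra was -0.060, Ctla4 -0.052, Icos -0.067, Tigit -0.10 and Ikzf4 -0.080. With Cd3g alone Ccr8 was 0.038, Tnfrsf4 0.056, Tnfrsf18 0.0099, Tnfrsf9 0.053, Batf 0.042 and Irf4 0.030. With the GC index Icos was -0.031, Tnfrsf9 0.11, Batf 0.083, Ikzf4 -0.043 and, relative to total counts, Tcf7 -0.46. With a replicate block Tigit was -0.00026 and Ikzf4 -0.040. Leaving out a library gave -0.18 to 0.025 for Ccr8, -0.12 to 0.023 for Tnfrsf4, -0.017 to 0.14 for Icos, -0.048 to 2.69 for Foxo1, -0.0011 to 0.31 for Il2rb, -0.22 to 0.084 for Tnfrsf9, -0.080 to 0.13 for Tigit, -0.22 to 0.053 for Batf, -0.21 to 0.013 for Irf4, -0.060 to 0.15 for Ikzf4 and, relative to total counts, -0.46 to 0.72 for Tcf7 and -0.077 to 0.94 for Id3. Foxo1, Tcf7 and Id3 turned without MHCII-deleted library 2.

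The GC alternatives were chosen after seeing the data. The labels do not say whether replicate numbers mark a shared animal, litter or day. Deviations of same-numbered libraries correlated at -0.22 and -0.18 in tumor and -0.14 and -0.21 in LN. With 2 MHCII-deleted libraries per tissue the values of a tissue are not independent, and they cannot show whether the numbers pair the samples. With the block, 40 calls of single genes were lost, those of Tnfrsf25 (-0.48) and Crip1 (-0.43) among them. Total counts were even, but T cell gene counts were lower in MHCII-deleted tumor libraries, and with 2 against 3 libraries small differences near 0 were not detectable.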
